A study of Homo sapiens with 2 samples.

Results

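The genes described here make polyamines or control their level: ODC1, AMD1, SRM and SMS of the synthesis pathway, the antizymes OAZ1 and OAZ2, the antizyme inhibitor AZIN1, and the acetyltransferase SAT1. They were chosen by gene symbol, and all 8 were found among the 23608 gene rows of the deposited table. The cells were SW13, an established human line labelled as adrenal adenocarcinoma. Both libraries came from cells that had received the plasmids Add2-Mhrt779 and Add2-Hotair, for murine long non-coding RNAs, 48 hours earlier (10000000 cells at 80% confluence, 5 µg, with a lipid reagent), so an untransfected culture was not part of the comparison. Purified total RNA gave 1 RNA sequencing library, and the RNA fragments that ribosomes protect, called footprints below, gave 1 ribosome profiling library. Neither was replicated, so values carry no replicate error and no p-value was computed. The comparison asks how much of each mRNA was recovered with ribosomes relative to its level in total RNA.

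Polyamines are small, positively charged molecules that bind RNA and are needed for growth and translation. Ornithine decarboxylase, encoded by ODC1, makes putrescine, and the aminopropyl groups that turn putrescine into spermidine and then spermine come from S-adenosylmethionine after its decarboxylation by AMD1. When polyamines are abundant, antizyme binds ornithine decarboxylase, sends it to the proteasome without ubiquitin and blocks polyamine uptake. The antizyme inhibitor resembles ornithine decarboxylase, has no enzyme activity and takes antizyme away from it. Much of this control acts on translation, which is why the ratio of ribosome profiling to RNA sequencing is of interest for these mRNAs.

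The antizyme mRNAs hold their protein in 2 overlapping reading frames, and polyamines favour a shift of the ribosome by 1 base at the end of the first frame. The sequences around that shift are shown because they are the feature that sets OAZ1 and OAZ2 apart from the other members. They were read from GENCODE release 29 transcripts, 5′ to 3′, with 30 bases on each side of the base that the annotation leaves out of the coding sequence. Capitals mark the last codon of the first frame and the TGA stop codon that follows it, and the omitted base is the T of that stop.
OAZ1: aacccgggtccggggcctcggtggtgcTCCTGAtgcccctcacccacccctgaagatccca
OAZ2: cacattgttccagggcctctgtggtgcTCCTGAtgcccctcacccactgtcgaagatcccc
In GRCh38 the OAZ1 window is chr19:2271413-2271473 on the plus strand and the OAZ2 window is chr15:64691485-64691545 on the minus strand, both within a coding exon. The shift comes after 68 codons in OAZ1 and after 32 codons in OAZ2. The windows are identical at 49 of 61 positions, among them the 17 positions that begin with the omitted base. The motif TCCTGAT, searched on its own with no other motif, is in 0.557% of the 539329 windows of 61 bases cut from GENCODE coding sequences on the transcript strand, and in 1.11% on either strand. The values that follow are sums over a whole gene and do not separate the first frame from the second.

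FPKM, the unit of the deposited values, counts fragments per kilobase of transcript relative to the size of the library. In the 10894 rows above 0 in both libraries, the commonest ratio was 1.56, found in 393 rows, and taking it as 1 fragment in each library, 50.4% of the rows had a ratio of whole numbers with at most 60 RNA sequencing fragments. With GENCODE transcript lengths this corresponds to about 1700000 RNA sequencing fragments and 1090000 ribosome profiling fragments. These totals are rough: of the 1439 rows used for them, 50.1% lay within 0.2 of the peak on the log2 scale. Of 12 adrenal cortex markers, 11 were listed at 0 in both libraries, NR5A1, STAR and CYP11A1 among them, and NR0B1 had 1.60 and 1.25 FPKM, so the steroid-making identity of the tissue of origin was not seen. In total RNA the keratins KRT8 and KRT18 stood at 41.9 and 57.2 FPKM, VIM at 490 FPKM, and SMARCA4 and SMARCA2, the remodelling ATPases for whose low level SW13 is known, at 3.99 and 1.72 FPKM. GAPDH, ACTB and EEF1A1 were at 1192, 759 and 566 FPKM there and at 1708, 885 and 506 FPKM among footprints. The transfected Mhrt779 was at 1851 FPKM in total RNA and 210.5 FPKM among footprints, and the human HOTAIR row at 612 and 2.92 FPKM. In a bulk lysate, a lower value in some cells and a lower value in every cell cannot be told apart.

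All 8 polyamine and antizyme genes were detected in both libraries. In total RNA their levels ran from 9.00 FPKM for SAT1 to 78.1 FPKM for OAZ1, and among footprints from 3.02 FPKM for AMD1 to 47.9 FPKM for SMS. The order in RNA sequencing was OAZ1, SMS, AZIN1, ODC1, OAZ2, SRM, AMD1 and SAT1. In ribosome profiling it was SMS, OAZ1, OAZ2, ODC1, SAT1, AZIN1, SRM and AMD1. AZIN1, ODC1 and OAZ2 lay within 22.3 to 23.7 FPKM in RNA sequencing, and with 1 library their order has no measured spread. SAT1 moved from the last place to the fifth. The summed FPKM of the members was 247 in total RNA and 152 among footprints, and SAT1 was the only member with the higher FPKM in ribosome profiling.

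**Figure D1:**
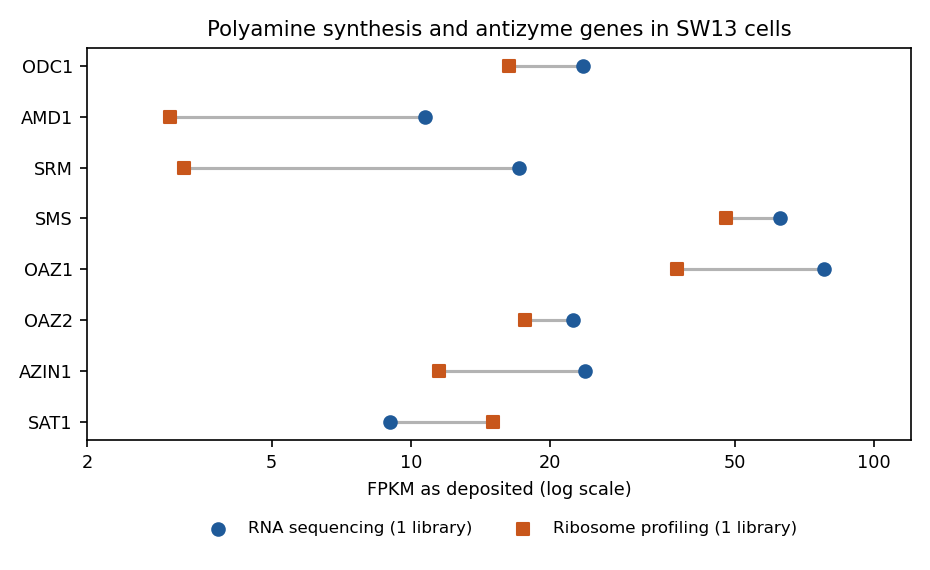
FPKM of each gene in RNA sequencing (circles) and ribosome profiling (squares) on a log axis, 1 library each, with no error bars because there are no replicates. The ribosome profiling value lies to the left in 7 of the 8 genes and to the right for SAT1, at 9.00 and 15.0 FPKM.

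Because the median tested gene was itself 1.31-fold higher in ribosome profiling, every fold below is relative to that gene on the log2(FPKM + 1) scale unless another source is named. The binomial intervals given below are an exception. They carry no pseudocount and are relative to the median deposited ratio of the tested genes. Tested genes are the 2734 whose FPKM, averaged over both assays, reached 10. Of the members, 7 passed this filter: SRM lay just inside it with a mean of 10.2 FPKM, and AMD1 just outside with 6.86 FPKM. ODC1, the first enzyme of the pathway and a classic target of MYC, stood at 23.5 FPKM in total RNA and at 16.3 FPKM among footprints, 1.86-fold below the median gene. Its row covers chromosome 2 from 10580508 to 10588453 in hg19 and also holds the small nucleolar RNA row SNORA80B, the only member row that overlaps another. AMD1, the S-adenosylmethionine decarboxylase, whose mRNA carries a short upstream reading frame at which polyamines stall ribosomes, stood at 10.7 FPKM in total RNA and at 3.02 FPKM among footprints. This is 3.81-fold below the median gene, on chromosome 6 from 111195987 to 111216913. The FPKM of ODC1 was 2.20 times that of AMD1 in total RNA and 5.39 times among footprints. The footprint proportion depends on the coding share of the transcripts, 52.2% for ODC1 and 29.2% for AMD1. With footprints scaled to coding length the log2 ratios were nearer each other, at -0.95 for ODC1 and -1.38 for AMD1. By the ratios of the authors' deposited table, ODC1 exceeded AMD1 by 1.29 on the log2 scale, with an error of 1.32 for the difference (SE) and a 95% range of -1.30 to 3.88. The difference between the decarboxylases was therefore within the authors' model error.

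The aminopropyltransferases differed more, with SRM the lowest of all members in ratio and SMS among the higher ones. SRM, spermidine synthase, stood at 17.1 FPKM in total RNA and at 3.23 FPKM among footprints, 5.60-fold below the median gene, on chromosome 1 from 11114649 to 11120091. Its deposited ratio equals that of 33 total RNA fragments and 4 footprints. On these numbers, without a pseudocount, SRM was 7.19-fold below the median gene. The exact 95% binomial interval around that value ran from 2.56-fold to 27.9-fold below, counting error only. SMS, spermine synthase, had 62.6 and 47.9 FPKM, 1.70-fold below, on chromosome X from 21958691 to 22012955. The FPKM of SMS was 3.67 times that of SRM in total RNA and 14.8 times among footprints. The coding share was 59.9% for SMS and 71.8% for SRM. With footprints scaled to coding length the log2 ratios were -0.99 for SMS and -3.06 for SRM. By the authors' deposited table, SRM minus SMS was -2.02 in log2 ratio, with an error of 1.52 for the difference (SE) and a 95% range of -4.99 to 0.95, which includes 0. Of 2259 tested protein-coding genes, 45 had a lower ratio than SRM and 437 a lower ratio than SMS. A gene with as few footprints as SRM passes the filter on mean FPKM only if its total RNA is higher. The rank of SRM is therefore partly set by the filter.

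Among the regulators, OAZ1 and AZIN1 had nearly the same ratio of FPKM and OAZ2 a higher one. With footprints scaled to coding length they were apart, at -1.65 for OAZ1, -0.60 for AZIN1 and 0.047 for OAZ2 on the log2 scale. OAZ1, the most abundant antizyme mRNA, stood at 78.1 FPKM in total RNA and at 37.6 FPKM among footprints, 2.69-fold below the median gene, on chromosome 19 from 2269520 to 2273487 in hg19. OAZ2, which has the same stop and shift motif in the windows above, had 22.3 and 17.7 FPKM, 1.64-fold below, on chromosome 15 from 64979773 to 64995462. The deposited ratios equal those of 133 and 41 fragments for OAZ1 and of 69 and 35 fragments for OAZ2. Without a pseudocount OAZ1 was 2.83-fold and OAZ2 1.72-fold below the median gene. The exact 95% binomial intervals around these values ran from 4.12-fold to 1.98-fold below for OAZ1 and from 2.66-fold to 1.13-fold below for OAZ2. OAZ1 minus OAZ2 was -0.72 in log2 ratio in the authors' deposited table, with a 95% interval from -3.14 to 1.71.

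AZIN1, the antizyme inhibitor, stood at 23.7 FPKM in total RNA and at 11.5 FPKM among footprints, 2.59-fold below the median gene. It was less than 2-fold below in 4 of 11 other settings, at -0.83 on the log2 scale with a filter of 1 FPKM and at -0.99 with no filter. Its row covers chromosome 8 from 103838536 to 103876397. Its RNA level was close to that of ODC1, its enzyme relative, and its ribosome profiling FPKM was lower. With footprint FPKM scaled to coding length the order of their ratios turned, to -0.95 for ODC1 and -0.60 for AZIN1 on the log2 scale. In the authors' deposited table ODC1 minus AZIN1 was 0.51 in log2 ratio, with a 95% interval from -1.70 to 2.73. Antizyme mRNA, as the sum of OAZ1 and OAZ2, was 100.4 FPKM in total RNA and 55.2 FPKM among footprints. This was 4.26 times ODC1 in total RNA and 3.39 times among footprints, and 4.24 and 4.82 times AZIN1. These proportions within a library do not depend on how the libraries were scaled against each other. Those among footprints do depend on the part of each transcript that is coding. That part is 59.8% for OAZ1, 29.5% for OAZ2, 52.2% for ODC1 and 28.5% for AZIN1. The proportions were not recomputed on coding length.

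SAT1, the acetyltransferase that starts the breakdown and export of spermidine and spermine, stood apart in direction. It stood at 9.00 FPKM in total RNA and at 15.0 FPKM among footprints, 1.23-fold above the median gene, on chromosome X from 23801275 to 23804327. Its deposited ratio equals that of 14 total RNA fragments and 15 footprints, and the exact 95% binomial interval ran from 1.81-fold below to 2.75-fold above the median gene. SAT1 made up 3.64% of the members' summed FPKM in total RNA and 9.89% among footprints. The share of SRM was 6.91% and 2.12%, and that of OAZ1 31.6% and 24.7%. In the authors' deposited table, SRM minus SAT1, the ends of the order and so chosen for their difference, was -3.14 in log2 ratio with a standard error of 1.60.

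Read as a set, 3 of the 7 tested members (SRM, OAZ1 and AZIN1) lay 2-fold or further below the median gene, 4 were between and 0 lay as far above. SRM reached the filter through total RNA alone and SAT1 through footprints alone, the assay in which each is higher, so the count that includes them is no support for a direction. OAZ1 and AZIN1 exceeded 10 FPKM in both assays. AMD1, untested, would be a further gene below. Of all tested genes, 19.7% lay 2-fold or further below the median and 13.1% as far above it. Without centring on the median, 2 tested members were at least 2-fold lower and 0 higher, against 14.2% and 23.6% of tested genes. Of the tested protein-coding genes, 14.5% lay 2-fold or further below the median gene. SRM was also more than 4-fold below, as were 9.80% of tested genes. Below the median gene lay 6 of the 7, against 50.0% of tested genes by construction. The median tested member was 1.86-fold below the median gene, and the median of all 8 was 2.20-fold below. With so few members, these counts are a description.

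**Figure D2:**
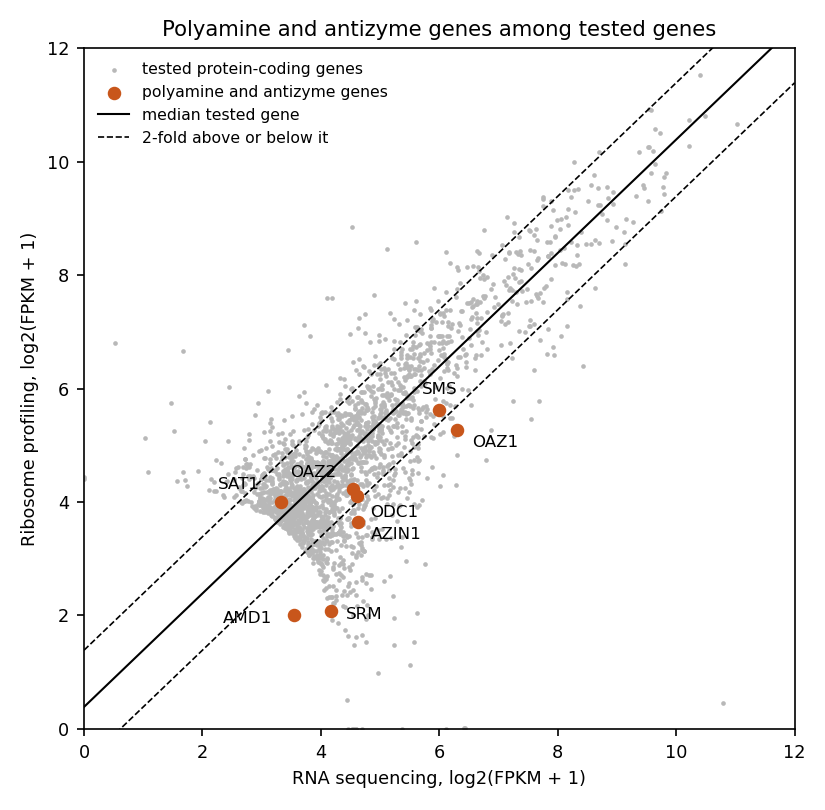
Each point is 1 gene, with its level in RNA sequencing (horizontal) and in ribosome profiling (vertical), both as log2(FPKM + 1). The solid line is the median tested gene and the dashed lines lie 2-fold above and below it. SRM, AMD1, OAZ1 and AZIN1 lie under the lower dashed line and SAT1 above the solid line, and the slanted lower edge of the grey cloud is the filter on mean FPKM.

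None of the 8 members was called in the authors' deposited table, in which 1.30% of the rows with the status OK were called. The lowest q-values there were 0.362 for SRM and 0.386 for AMD1. The standard errors of the members' log2 ratios, taken from the authors' deposited table, ran from 0.73 for AZIN1 to 1.24 for SRM. With these errors the 95% intervals of SRM, AMD1 and AZIN1 lay below the median gene, 3 of 8, as did those of 6.14% of tested protein-coding genes. AMD1 is not among the tested genes, and SRM reached the filter through total RNA alone, so this count is no support for a direction. The intervals of OAZ1, ODC1, SMS, OAZ2 and SAT1 included the median gene. The upper end for AZIN1 was -0.064 on the log2 scale, barely below. In the order of ratios (SRM, AMD1, OAZ1, AZIN1, ODC1, SMS, OAZ2, SAT1), 0 of the 7 neighbouring pairs had an interval of the difference that excluded 0, and the same held for the 6 pairs fixed by function. Such intervals do not show that the members behaved alike.

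Fragment numbers could be inferred for 5 members. Large numbers match by chance more easily than small ones, so those of OAZ1, ODC1 and OAZ2 are less sure than those of SRM and SAT1. Counting error alone gave intervals below the median gene for SRM, OAZ1, ODC1 and OAZ2, 4 of 5, against 21.8% of the 454 tested protein-coding genes with whole fragment numbers. Because SRM reached the filter through total RNA alone and SAT1 through footprints alone, this count too is no support for a direction. OAZ1, ODC1 and OAZ2 exceeded 10 FPKM in both assays. For ODC1 the numbers were 79 and 35, 1.97-fold below without a pseudocount, with an interval from 3.02-fold to 1.31-fold below. AMD1 had about 63 and 11 fragments, AZIN1 about 190 and 59 and SMS about 196 and 96, estimated from GENCODE lengths. For the 5 members with whole numbers, such estimates of RNA sequencing fragments were all higher than those numbers. They were 106 against 79 for ODC1 and 73 against 69 for OAZ2, so the estimates may run high. The low values of SRM and AMD1 thus rest on the fewest ribosome profiling fragments of the set, with SAT1 next.

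**Figure D3:**
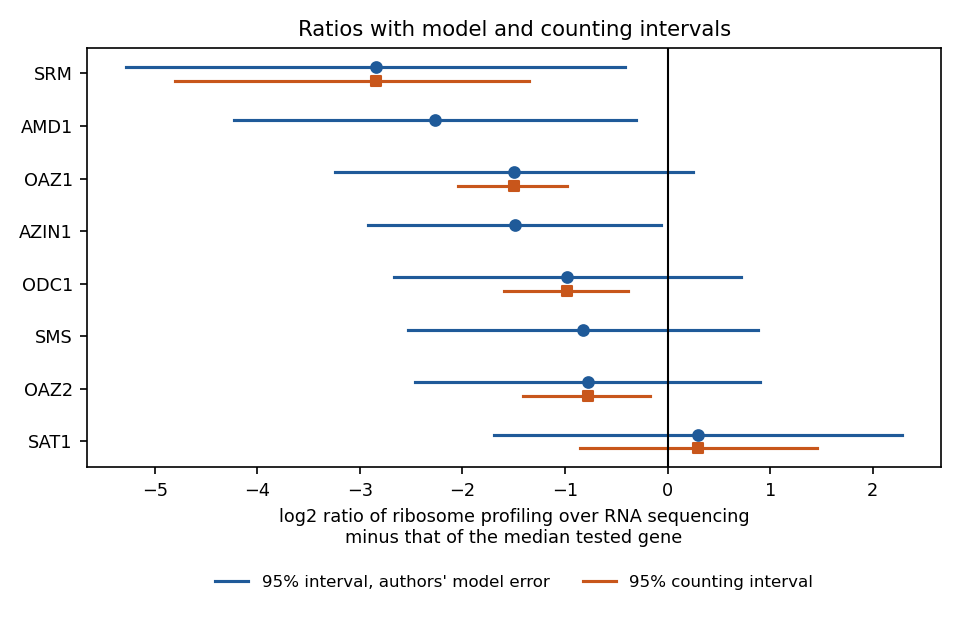
Horizontal axis: log2 of footprint FPKM over total RNA FPKM, less that of the median tested gene, without a pseudocount. Circles and their lines are the deposited ratio and its 95% interval from the authors' model error, and squares are the 5 genes with whole fragment numbers and their 95% counting interval. The counting intervals are narrower throughout, and SAT1 spans 0 on both.

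Transcript structure differed among the members. By GENCODE, the 5′ untranslated region of AZIN1 is 1164 bases, longer than in 98.6% of the tested protein-coding genes, and that of ODC1 is 511 bases, longer than in 89.9%. Those of SRM and OAZ1 are short, at 81 and 79 bases, against a median of 180. An ATG lies upstream of the start codon in 6 of the 8 members (6 of them in AZIN1, 2 each in ODC1, OAZ2 and SAT1, 1 each in AMD1 and SMS), as it does in 41.8% of the tested protein-coding genes. The members with the lowest ratio, SRM, and the highest ratio, SAT1, have 0 and 2. A relation between upstream ATGs and the ratio was not tested. The 5′ region of SRM is 87.7% G and C, against a median of 65.9%, and that of AMD1 is 44%.

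Ribosomes cover the coding part, whereas FPKM divides by the whole transcript, so the coding share was set beside the ratios. Coding sequence makes up 71.8% of the SRM transcript and 59.8% of OAZ1, but 28.5% of AZIN1, 29.2% of AMD1 and 29.5% of OAZ2, against a median of 54.4%. Across the 2144 tested protein-coding genes with a GENCODE transcript, the ratio and the coding share had a Spearman rho of 0.074, a description across genes that share both libraries. With ribosome profiling FPKM scaled to coding length, a setting chosen after the data were seen, the log2 ratio was -3.06 for SRM, -1.65 for OAZ1, -1.38 for AMD1 and -0.60 for AZIN1. On that scale AZIN1 was no longer 2-fold below, and OAZ2 lay at 0.047, on the other side of the median gene. ODC1, SMS and SAT1 were at -0.95, -0.99 and 0.34.

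Neighbouring steps of the pathway, MYC with its partners, and the frameshift-decoded gene PEG10 were represented by 8 gene lists. These lists held 52 genes, of which 13 were tested. Among these 13, 2 lay 2-fold or further above the median gene, 1 lay as far below and 10 were between. Of all tested genes, 13.1% lay as far above and 19.7% as far below. With so few genes, these counts are a description and no support for a direction. The median of the 13 was -0.21 on the log2 scale. Of the 13, 0 were called by the authors, against 1.30% of the rows with the status OK in their deposited table. The genes at least 2-fold above were OAT, ornithine aminotransferase, and SLC3A2. OAT had 5.67 and 24.5 FPKM, 2.92-fold above, and SLC3A2 had 14.7 and 41.1 FPKM, 2.04-fold above. SLC3A2 is the heavy chain of amino acid transporters and has been linked to polyamine export. OAT was the only tested gene of the 10 for ornithine and arginine supply, and SLC3A2 the only tested gene of the 10 for polyamine transport. Of those lists 3 and 5 genes were listed at 0 in both libraries. OAT passed the filter through its footprint value, being under 10 FPKM in total RNA, whereas SLC3A2 exceeded 10 FPKM in both assays.

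The gene below was MAT2A, which makes S-adenosylmethionine, the substrate of AMD1. It stood at 23.6 FPKM in total RNA and at 9.39 FPKM among footprints, 3.10-fold below the median gene. Its footprint value alone would not have reached 10 FPKM, so it passed the filter through total RNA. The other 3 tested genes of its list of 12 were between: AHCY with 30.1 and 35.4 FPKM, ENOPH1 of methylthioadenosine salvage with 11.3 and 13.8 FPKM, and MAT2B, the regulatory partner of MAT2A, with 10.8 and 9.75 FPKM. In the authors' deposited table the standard error of MAT2A was 0.92 on a log2 ratio of -1.33.

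EIF5A carries hypusine, an amino acid made from spermidine, and is the best known direct user of this polyamine in translation. EIF5A stood at 184 FPKM in total RNA and at 146.5 FPKM among footprints, 1.64-fold below the median gene. Its near-identical copy EIF5AL1 had 44.6 and 50.7 FPKM, and since reads can be divided between them both rows are uncertain. Summed, they were 1.52-fold below. DHPS, which starts the hypusine modification, had 15.3 and 18.4 FPKM, 1.10-fold below. All 3 tested genes of this list of 5 were between the 2-fold limits.

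In polyamine breakdown, 1 of 3 genes besides SAT1 was tested, and it was between the limits. SAT2, a relative of SAT1 in a locus shared with other genes, had 14.6 and 10.2 FPKM, 1.82-fold below the median gene. The spermine oxidase SMOX had 8.60 and 3.33 FPKM and the polyamine oxidase PAOX 1.01 and 2.79 FPKM, both under the filter. The other antizyme family genes had little or no recorded signal: OAZ3, an antizyme of the testis, was listed at 0 in both libraries, and AZIN2, under its older symbol ADC, had 0.84 FPKM in total RNA and was listed at 0 among footprints. PEG10, another human mRNA decoded by a frameshift, in the opposite direction, had 23.6 and 24.7 FPKM, 1.26-fold below. In RNA sequencing it was as abundant as AZIN1 and ODC1.

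**Figure D4:**
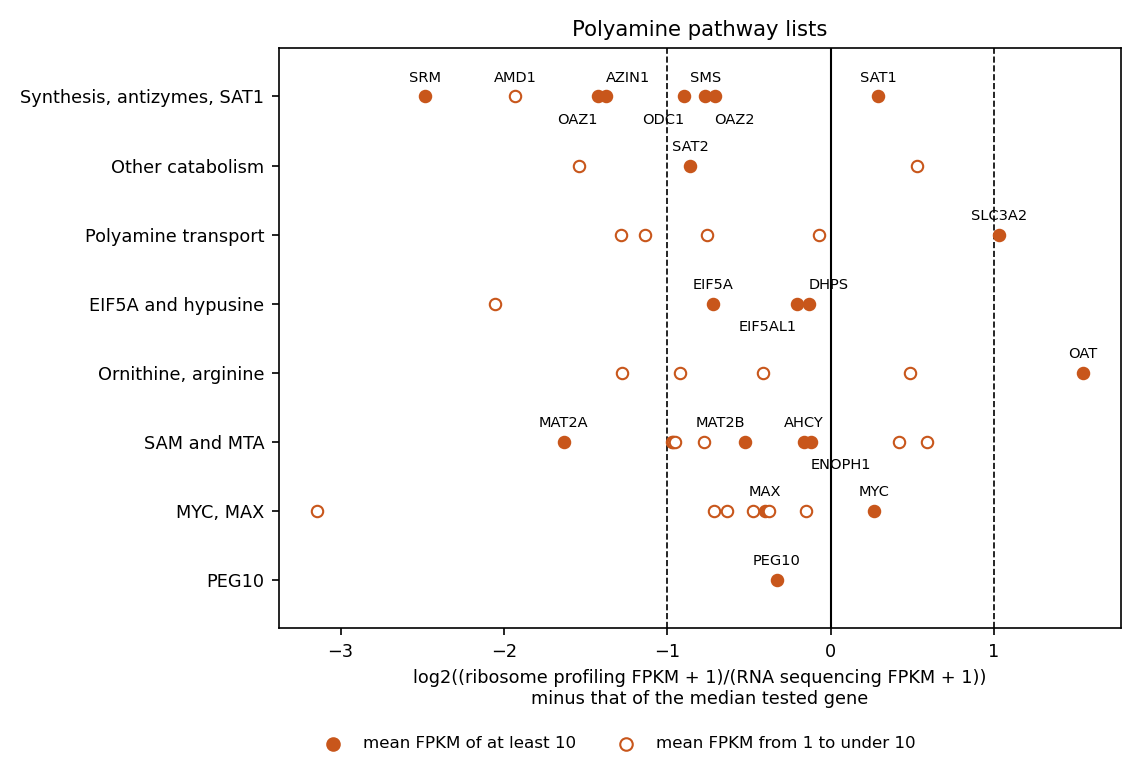
Ratio of each gene relative to the median tested gene, by list, for genes with a mean FPKM of at least 1. Filled points passed the filter of 10 FPKM and open points did not, and the dashed lines lie 2-fold above and below. SRM, OAZ1, AZIN1 and MAT2A are the filled points left of the lower limit, and OAT and SLC3A2 those right of the upper limit.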

How the data were processed

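The deposited table gives FPKM values that the authors computed, 1 per library, with their log2 ratio, test statistic (a score), p-value and q-value, copied here and not recomputed. Per the submitters' processing notes, TopHat2 (2.0.8b), Bowtie2 (2.0.0.6), bedtools (2.16.1) and SAMtools (0.1.18) were used in roles not stated, with mm10 and hg19. Which program wrote the table, and how it treated strand and shared reads, is not given in the sources used here. Gene coordinates are the table's, in hg19.

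The ratio is the log2 of footprint over total RNA FPKM, with a pseudocount of 1 added to each, less the median over tested genes (mean FPKM of at least 10, rows with the status FAIL or HIDATA left out). The pseudocount draws the ratio of genes with low FPKM towards equal levels, so it understates how far SRM and AMD1 lie below the median gene. A deposited standard error is the size of the log2 ratio over that of the statistic, and ranges of differences assume independent errors. Fragment numbers are the smallest whole numbers that give the deposited ratio within a relative tolerance of 6e-06, up to 150 in RNA sequencing, kept where GENCODE transcript length gives 0.5 to 1.5 times that number. Their exact (Clopper-Pearson) 95% intervals cover counting error only, and reads without molecular identifiers are not independent molecules. Transcript features use 1 GENCODE release 29 transcript per gene, found for 94.9% of tested protein-coding genes. The ratios and the whole-number search were tested on simulated data, the search with at most 60 RNA sequencing fragments and a known scale. Larger numbers and the check against transcript length were not simulated. Python 3.11.15, pandas 2.3.3 and scipy 1.17.1 were used. The alternatives were other pseudocounts, filters and centrings, the deposited ratio and coding length.

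Named genes are the members, up to 5 tested genes of each list (all genes in lists of under 4), the tested gene nearest to each member, and marker, reference and transfected RNAs. The members, lists and rules were chosen with earlier results of these data known.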

Additional observations from a re-analysis of the deposited data

How the results depend on the processing

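Of 11 alternatives, 10 were planned and 1, the scaling to coding length, was added after the data were seen. Ratios without centring are relative to equal FPKM, and without a filter the median gene is itself at that level, so these 2 settings give the members the same values. SRM and AMD1 were at -1 or lower on the log2 scale in all 11, OAZ1 in 10 and AZIN1 in 7. SRM ranged from -3.06 to -1.75 on the log2 scale and AMD1 from -2.27 to -1.30, and the exception for OAZ1 was -0.88 with a filter of 1 FPKM. SAT1 lay above 0 in all 11, from 0.12 to 0.84. The median of the tested members ranged from -1.27 to -0.51. The count of members at least 2-fold lower was 3 as reported and 1 with a filter of 30 FPKM, where only 2 members are tested, and 2 with a filter of 1 FPKM, without centring and with the scaling to coding length. The share of all tested genes as far below was 19.7% as reported and 22.3% with the filter of 30 FPKM. It was 19.6% with the filter of 1 FPKM, where 8 members are tested, 14.2% without centring and 16.9% with the scaling. The count of members at least 2-fold higher was 0 in all 11. The share of tested genes as far above ran from 5.99% with no filter to 23.6% without centring. About 1090000 ribosome profiling fragments leave the lowest members with few. No paired analysis was possible because each assay had 1 library.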

Other observations

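MYC, the transcription factor for which ODC1 is a known target, stood at 17.2 FPKM in total RNA and at 27.6 FPKM among footprints, 1.20-fold above the median gene, and its partner MAX had 13.4 and 13.3 FPKM, 1.32-fold below. These were the tested genes of a list of 9, and 0 of them were at least 2-fold away.

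The tested gene nearest to each member in the plane of the log2(FPKM + 1) values, over only 2 libraries, was recorded. SRM lay nearest to SAMD4B, which had 17.5 and 3.63 FPKM, at a distance of 0.13. OAZ1 lay nearest to AHNAK2 with 75.1 and 34.9 FPKM, OAZ2 to SF3A2 with 21.4 and 17.9 FPKM, SMS to ACTA1 with 62.3 and 46.3 FPKM, and SAT1 to ABCF2 with 9.15 and 15.2 FPKM. AZIN1 lay nearest to the small RNA SCARNA6 with 23.3 and 11.8 FPKM, and ODC1 to LOC440894 with 23.1 and 16.3 FPKM. For AMD1, which is below the filter, the nearest tested gene was RBM14-RBM4, at a distance of 0.64.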
